A study of Mus musculus with 6 samples.

Results

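The genes that encode receptors for hyaluronan, the synthases that make it and the hyaluronidases that cleave it were compared between the endothelium of blood vessels (VECs) and that of lymphatic vessels (LECs) sorted from mouse small intestine. The members were 10 genes, Lyve1, Stab1, Stab2, Cd44, Has1, Has2, Has3, Hyal1, Hyal2 and Hyal3. These were chosen for what their proteins do, with earlier results of these data known. The members were found among 22911 named genes through the RefSeq transcript that each array probe was designed for. They were covered by 13 of the 56605 probes other than controls, with 3 probes for Cd44, 2 for Stab2 and 1 for each of the others.

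Hyaluronan is a long, unsulfated sugar chain of the extracellular matrix. HAS enzymes spin it out through the plasma membrane, receptors on the cell surface bind it or take it up, and hyaluronidases cut it into pieces that lysosomal exoglycosidases finish. Much of the hyaluronan of a tissue leaves through lymphatic vessels, and LYVE-1, a receptor named for these vessels, is a standard marker of their endothelium.

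VECs were sorted as CD45- CD31+ CD90- cells and LECs as CD45- CD31+ CD90+ cells from small intestines of female mice, with 3 samples of each (VEC 2, 3 and 4, LEC 6, 7 and 8), and no transgene or treatment was named for either group. Neither the strain of the sorted mice nor their age was tied to these samples in the sources used here. Their RNA was amplified, labeled with Cy3 and hybridized to one-color Agilent arrays. In GEO's description field the LEC samples are also called VECs, and the grouping here follows the titles and source names. Separate mice are not stated for the samples of either group, so the p-values measure the spread between these samples, which may be technical.

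Values are intensities as the scanner software gave them after its own background subtraction, and log2 signals set so that 0 is the 75th percentile of the array. Between 30930 and 35510 probes per array were well above background, and no spot was saturated. The 75th percentile lay between 333 and 375 intensity units in VECs and between 381 and 441 in LECs. All 6 markers of lymphatic endothelium other than Lyve1 were higher in LECs (limma), and all 6 markers of blood vascular endothelium were lower. In sorted bulk samples, fewer cells of a type and less RNA per cell cannot be told apart.

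The bases in front of 3 of the 4 receptor genes are printed here because these genes gave large differences between the populations, in both directions. RefSeq (GRCm38.p6) gave a window for 7 of the 10 members, and Lyve1, Has2 and Has3 had none in the table used. The 250 bases before each start were searched on both strands for 8 motifs, and the printed runs, 5′ to 3′ on the gene's own strand, stop at the outermost annotated start of the gene. Capitals mark the motif that was found, and all 3 genes lie on the minus strand.

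Stab1, chr14:31168652-31168891: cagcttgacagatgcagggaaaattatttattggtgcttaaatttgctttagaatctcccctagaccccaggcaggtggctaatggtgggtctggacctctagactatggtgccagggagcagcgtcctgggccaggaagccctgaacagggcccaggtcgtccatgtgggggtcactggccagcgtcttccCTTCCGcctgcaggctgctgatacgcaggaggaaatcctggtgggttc

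Stab2, chr10:87008039-87008192: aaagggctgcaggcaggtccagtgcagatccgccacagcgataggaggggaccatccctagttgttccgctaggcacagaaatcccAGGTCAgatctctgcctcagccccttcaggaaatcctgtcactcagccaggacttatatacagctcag

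Cd44, chr2:102901670-102901915: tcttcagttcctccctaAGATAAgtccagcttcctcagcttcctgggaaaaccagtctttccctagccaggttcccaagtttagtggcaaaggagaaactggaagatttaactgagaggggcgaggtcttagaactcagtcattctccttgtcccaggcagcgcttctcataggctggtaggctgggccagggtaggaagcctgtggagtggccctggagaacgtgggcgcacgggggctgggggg

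Positions are counted back from the start on which RefSeq's window was built, which lies inside the outermost start, so that the last 10 bases of the Stab1 window, 96 of Stab2 and 4 of Cd44 are not printed. The capitals in Stab1 are an ETS motif, CGGAAG read on the other strand, 58 to 53 bases before that inner start, and 13.6% of the 32851 windows in the table held that motif. In Stab2 they are a nuclear receptor motif, TGACCT read on the other strand, 164 to 159 bases before its inner start, which 14% of all windows held. The Cd44 run has a GATA motif, AGATAA, 233 to 228 bases before its inner start, which 9.99% of all windows held. Stab1 and Stab2, which moved the same way, shared none of the 8 motifs. The others searched were a GC box (GGGCGG, in 32.7% of all windows), 2 forms of a SOX motif (ACAAAG in 16.5% and then AACAAT in 9.42%), an E-box (CACGTG in 6.02%) and a TATA box (TATAAA in 12.4%). The GC box was found before Hyal1, Hyal2 and Hyal3, and Hyal1 also held the ACAAAG form of the SOX motif at 2 positions. Has1 held the nuclear receptor motif. The 3 windows had 57.2% (Stab1), 53.2% (Stab2) and 56.4% (Cd44) G and C over their 250 bases, against a median of 52.4% over all windows.

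The endocytic and lymphatic receptors were higher in LECs and Cd44 was lower. Of the 10 members, 8 could be tested, with a probe well above background on every array of VECs, of LECs or of both. Lyve1, Stab1, Stab2, Hyal1 and Hyal2 were higher in LECs, and Cd44, Has3 and Hyal3 were lower (limma, Benjamini-Hochberg adjusted p under 0.05). Over all 14971 named genes tested, 34.9% were called higher in LECs and 32.0% lower, so a call by itself was common in this comparison. The VEC and LEC arrays did not overlap for any of the 8 genes, which held for 75% (11229) of all genes tested. The median size of the difference, whatever its sign, was 2.42 on the log2 scale for the 8 genes and 0.46 over all tested genes. Their median signed difference was 0.51 against 0.02 over all genes, and the median SD between arrays of a group was 0.18 against 0.11. Because a member had to be well above background in at least 1 group to be tested, these medians describe the 8 genes and carry no test.

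**Figure D1:**
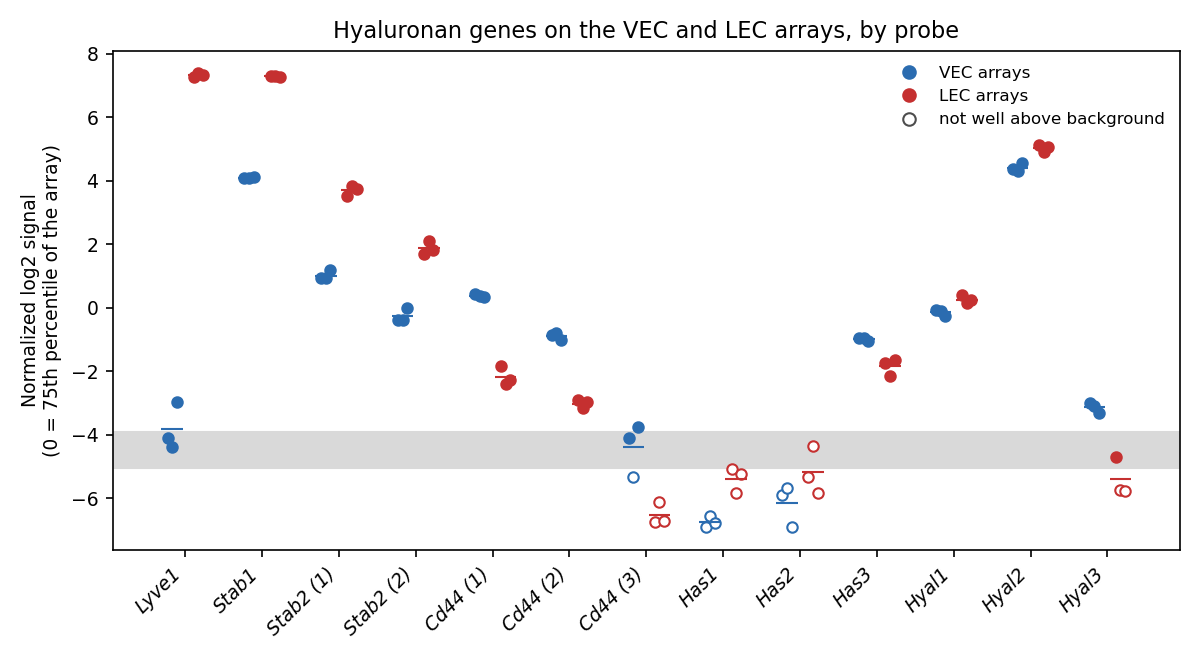
Normalized log2 signal of all 13 probes of the 10 genes on each array (y axis, 0 is the 75th percentile of the array), with VEC arrays in blue, LEC arrays in red, horizontal bars for group means, open circles for signals not well above background and a gray band for the range over arrays of the lowest signal well above background, -5.03 to -3.92. The VEC points of Lyve1 lie at or near that band while its LEC points lie above 7, and the points of Has1, Has2 and the third Cd44 probe lie mostly as open circles near or below the band.

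Lyve1, the hyaluronan receptor of lymphatic endothelium, had an intensity of 21.3, 15.9 and 47.8 on VEC 2, 3 and 4. On LEC 6, 7 and 8 it was 67160, 63630 and 70920. All 6 signals were well above background, although VEC 2 and 3 were near the lowest such signals of their arrays, 12.1 and 14.2, and VEC 4 was farther from its own, 13.8. The mean log2 signal was -3.82 ± 0.74 in VECs and 7.33 ± 0.051 in LECs (SD, n = 3 each), a difference of 11.15 with a standard error of 0.36 and a 95% interval of 10.28 to 12.02 (limma adjusted p = 2.9e-06). This was 2270.4-fold, the 5th largest difference toward LECs among the 14971 genes. The spread lay in VECs, where VEC 4 was highest, and without VEC 4 the difference was 11.57. With normexp background correction, which lifts dim signals, it was 9.57.

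Stab1 and Stab2 encode stabilin-1 and stabilin-2, large scavenger receptors, the latter of which takes hyaluronan up for degradation in the sinusoids of liver and lymph node. The Stab1 probe gave 6119, 5673 and 6607 intensity units in VECs and 68030, 60690 and 68800 in LECs. Its arrays were the closest together of all members, with a mean log2 signal of 4.10 ± 0.030 in VECs and 7.30 ± 0.016 in LECs (SD, n = 3). The difference was 3.20 (standard error 0.056, interval 3.06 to 3.34, 9.18-fold, limma adjusted p = 5.5e-07). Stab1 was thus well above background in both populations, and ranked 458th toward LECs.

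Stab2 was read by 2 probes. The brighter gave 687, 635 and 861 in VECs and 4925, 5465 and 5891 in LECs. Its mean log2 signal was 1.02 ± 0.16 in VECs and 3.70 ± 0.17 in LECs, a difference of 2.68 (standard error 0.12, interval 2.38 to 2.98, 6.41-fold, limma adjusted p = 1.1e-05). The other probe gave 277, 257 and 377 in VECs and 1398, 1641 and 1550 in LECs, a difference of 2.12 (standard error 0.15, 4.35-fold, limma adjusted p = 7.8e-05). VEC 4 was the highest of the VEC arrays on both probes, and no VEC array reached an LEC array on either. The intervals of the differences, 2.38 to 2.98 and 1.74 to 2.50, overlapped.

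Cd44, the widely expressed hyaluronan receptor of leukocytes, stromal cells and activated endothelium, went the other way. The brightest of its 3 probes gave 490, 428 and 475 in VECs and 121, 71.8 and 91.3 in LECs. The mean log2 signal was 0.38 ± 0.050 in VECs and -2.17 ± 0.30 in LECs (SD, n = 3), a difference of -2.55 (standard error 0.15, interval -2.92 to -2.18, limma adjusted p = 3.3e-05), so that the signal was 5.86-fold lower in LECs. A further probe gave 198, 194.0 and 184 in VECs and 57.3, 42.4 and 56.1 in LECs, and was 4.37-fold lower (difference -2.13, standard error 0.10, limma adjusted p = 1.4e-05). On both probes the lowest VEC array stood above the highest LEC array. The remaining probe gave 21.2, 8.31 and 28.0 in VECs and 4.01, 5.50 and 4.23 in LECs. It was well above background on 2 VEC arrays and on 0 LEC arrays, so it was not tested, and its groups did not overlap. Cd44 is spliced into many forms, and all 3 probes were annotated to the same RefSeq transcript, and where in it each lies was not analysed here. With normexp correction the brighter 2 probes differed by -1.99 and -1.32.

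**Figure D2:**
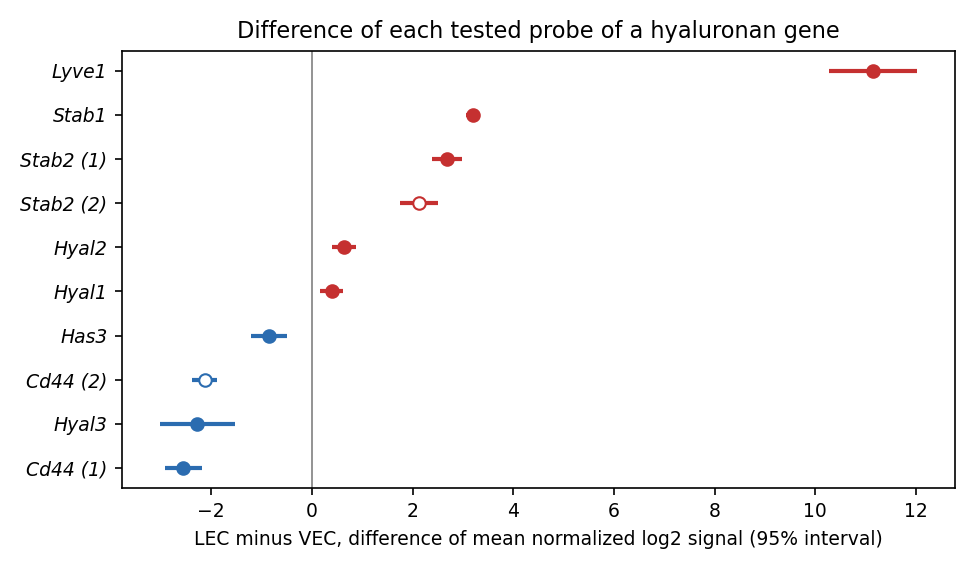
Difference of the mean normalized log2 signal between LECs and VECs (x axis, positive is higher in LECs) for the 10 tested probes of 8 genes, with the limma 95% interval as a horizontal line. Filled points are the probe that represents the gene and open points a further probe. Red is higher and blue lower in LECs, and every interval lies on 1 side of 0, from Lyve1 at 11.15 to the brightest Cd44 probe at -2.55.

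Among the synthases only Has3 could be tested. HAS enzymes join the sugars of hyaluronan from UDP-linked precursors at the plasma membrane. The Has3 probe gave 188, 171 and 181 in VECs and 131, 85.6 and 142 in LECs. Its mean log2 signal was -0.99 ± 0.056 in VECs and -1.84 ± 0.28 in LECs, a difference of -0.85 (standard error 0.14, interval -1.20 to -0.50, limma adjusted p = 0.0028), which is 1.81-fold lower in LECs. LEC 7 was the lowest array, and all LEC arrays lay below all VEC arrays.

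Has1 and Has2 were well above background on 0 of the 6 arrays. The Has1 probe gave 3.01, 3.54 and 3.40 in VECs and 12.7, 6.62 and 11.6 in LECs, with no overlap between the groups. The Has2 probe gave 6.02, 6.56 and 3.12 in VECs and 10.7, 18.7 and 7.72 in LECs. With both groups not well above background, no fold is given for either gene. Has2 is the synthase that the embryo needs for its heart and vessels, and an antisense RNA, Has2os, is transcribed across from it. The Has2os probe gave 18.1, 12.7 and 14.3 in VECs and 10.4, 12.02 and 11.3 in LECs, and was well above background on 1 array, in VECs. Neither gene could be tested.

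Of the hyaluronidases, Hyal1 and Hyal2 were higher in LECs by small steps, and Hyal3 was lower. Hyal2, an enzyme held to the cell surface by a lipid anchor that starts the breakdown of long chains, gave 7480, 6549 and 8777 in VECs and 15140, 11540 and 14790 in LECs. Its mean log2 signal was 4.41 ± 0.13 in VECs and 5.04 ± 0.11 in LECs, a difference of 0.64 (standard error 0.096, interval 0.40 to 0.87, 1.55-fold, limma adjusted p = 0.0017). The lowest LEC array stood 0.37 above the highest VEC array on the log2 scale.

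Hyal1, the lysosomal enzyme that continues the breakdown, gave 346, 314 and 317 in VECs and 566, 419 and 525 in LECs. The mean log2 signal was -0.13 ± 0.097 in VECs and 0.26 ± 0.13 in LECs, a difference of 0.39 (standard error 0.093, interval 0.17 to 0.62, 1.31-fold, limma adjusted p = 0.011). This was the smallest difference of the 8 genes, and ranked 4209th toward LECs. Without scaling between arrays it was 0.62.

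Hyal3, whose part in hyaluronan breakdown is unclear, gave 45.4, 39.4 and 37.9 in VECs and 16.6, 7.06 and 8.11 in LECs. It was well above background on every VEC array and on 1 LEC array, LEC 6. The measured difference was -2.28 (standard error 0.30, interval -3.02 to -1.53, limma adjusted p = 0.0010). Because the LEC signals reached the background, the fold is a lower bound, at least 2.38-fold lower in LECs, taken against the lowest signal well above background on each LEC array where that was higher. The size depends on the background. This bound, like those given for other genes below, holds only for the background subtraction used here. The difference was -1.25 with signals raised to that floor and -0.65, smaller than the bound, with normexp correction. Hyal1, Hyal2 and Hyal3 lie side by side on chromosome 9, and the annotated spans of Hyal1, Naa80 and Hyal3 overlap, so the signals of these 3 genes, with 1 probe each, are uncertain where transcripts share sequence.

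Position on the slide moved with the groups in part. The VEC arrays and LEC 6 were in row 1 of the slide and LEC 7 and 8 in row 2. Within row 1, where LEC 6 is the single LEC array, the difference was 11.10 for Lyve1, 3.20 for Stab1, 2.50 and 1.95 for Stab2 and -2.22 and -2.02 for the tested Cd44 probes. It was -0.74 for Has3, 0.52 for Hyal1, 0.73 for Hyal2 and -1.57 for Hyal3. Because LEC 6 lay outside the range of the VEC arrays on each probe, these differences had to keep the sign seen over all 6 arrays. All passed in the limma fit with slide row as a block, which gives the same differences and assumes that LEC 6 varies like the other arrays, with adjusted p from 4.6e-05 for Stab1 to 0.037 for Has3.

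Cells of other types in the gates were read by their markers. Of 12 myeloid markers, 10 were tested, 7 of them higher in LECs and 2 lower, and the summed level relative to the 75th percentile ran from 78.6 to 84.2 in VECs and from 70.3 to 75.7 in LECs. Itgam gave most of that sum, and without it the sum was 4.26 to 4.65 in VECs and 6.05 to 6.57 in LECs. Aif1 was 7.20-fold, Fcer1g 3.50-fold, C1qa at least 3.97-fold and Adgre1 at least 3.76-fold higher in LECs. Cd68 was 2.23-fold and Itgam 1.16-fold lower, and Csf1r did not pass (difference -0.12). Ptprc encodes the CD45 that the sort excluded. Its probe gave 14.6, 5.68 and 18.6 in VECs and 30.5, 23.9 and 37.5 in LECs, with no overlap between the groups. Only VEC 2, VEC 4, LEC 6 and LEC 8 were well above background for it, too few for a test. The dimmest signal well above background was highest on LEC 7, at 25.1. Cd163, another marker of this list, was well above background on 0 arrays. With slide row as a block, 4 of these myeloid markers were higher and 1 lower. Adgre1, C1qa and Lyz2 were no longer called higher (differences 2.36, 1.87 and 1.84), and Itgam was no longer called lower (-0.27). Tissue macrophages can also carry Lyve1 and Stab1, and the part of myeloid RNA in the differences of Lyve1, Stab1 and Stab2 was not tested. Of 9 mesenchymal markers 7 were tested, 3 of them higher in LECs and 1 lower, with a summed level of 22.3 to 29.6 in VECs and 18.3 to 21.6 in LECs. Without Acta2 these sums were 1.39 to 2.16 and 2.65 to 3.50, and with slide row as a block 2 were higher and 0 lower. Of 4 mesothelial markers, Msln, Upk3b and Wt1 were well above background on 0 arrays. The other, Krt19, was tested and was lower in LECs (difference -2.61). The summed level of this list was 0.42 to 0.56 in VECs and 0.10 to 0.12 in LECs. Of 4 T cell markers with a probe 3 were tested, 2 of them higher in LECs and 1 lower, and Cd3g was well above background on 0 arrays. Their summed level was 2.39 to 3.35 in VECs and 4.92 to 5.42 in LECs, but without Lck it was 1.27 to 1.83 in VECs and 0.98 to 1.25 in LECs. With slide row as a block the T cell marker that was lower, Cd3e, did not pass. Of 4 epithelial markers 2 were tested, 1 of them lower in LECs and 1 that did not pass, with a summed level of 0.71 to 1.23 in VECs and 0.53 to 0.70 in LECs. The part of these cells in the differences of Cd44, Has3, the other members and the wider set of hyaluronan genes was not tested. Of 5 markers of all endothelium, 4 were lower in LECs.

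A wider set of hyaluronan genes held 54 genes in 8 lists. Among the 40 tested, limma called 20 higher and 13 lower in LECs and left 7 that did not pass, beside 34.9% higher and 32.0% lower over all genes. The share called lower was near that of all genes. These lists were chosen with earlier results of these data known, and the counts carry no test. The median difference of the 40 genes was 0.29 against 0.02 over all genes.

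All 3 tested genes of the heavy chain family of inter-alpha-trypsin inhibitor were higher in LECs. Some proteins of this family become bound to hyaluronan and tie its chains together. Itih5 gave 62.0, 46.5 and 60.04 in VECs and 2810, 2520 and 3060 in LECs, 42.8-fold higher (difference 5.42, standard error 0.092, limma adjusted p = 5.3e-07). Itih3 was 3.32-fold and Itih4 3.16-fold higher. Itih1, Itih2 and Ambp, the bikunin precursor that shares the complex, were not tested, the last with 0 arrays well above background. Tnfaip6 encodes TSG-6, which moves heavy chains onto hyaluronan, and gave 2.76, 3.24 and 7.74 in VECs, where no array was well above background. In LECs it gave 114, 76.9 and 84.0, at least 5.77-fold higher (limma adjusted p = 1.8e-04).

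Of the 9 other receptors and binding proteins, all were tested, with 4 higher, 2 lower and 3 that did not pass. Layn, a membrane receptor named layilin, gave 350, 347 and 332 in VECs and 1247, 1106 and 1201 in LECs and was 2.95-fold higher (limma adjusted p = 2.0e-05). C1qbp, a mostly mitochondrial protein that also binds hyaluronan, was 1.54-fold higher. Tlr4 and Tlr2, innate receptors for which hyaluronan fragments have been reported as ligands, were lower. Tlr4 gave 163, 140 and 206 in VECs and 18.5, 20.1 and 18.0 in LECs, at least 9.44-fold lower, while Tlr2 was 2.13-fold lower.

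Proteoglycans and link proteins, which hang on hyaluronan chains and hold the aggregates together, were split. Of 8 genes 5 were tested, Bcan (at least 10.2-fold) and Hapln1 (at least 1.81-fold) were higher in LECs, and Hapln3 (2.09-fold), Vcan (1.69-fold) and Ncan (1.33-fold) were lower. Hapln1 did not pass with signals raised to the lowest signal well above background. Ncan did not pass in 11 of the 19 alternatives, among them 3 other scalings and LEC 8 or any 1 VEC array left out (differences from -0.45 to -0.39, limma adjusted p from 0.078 to 0.11). Bcan gave 10.7, 13.6 and 11.6 on the VEC arrays, none of them well above background, and 159, 182 and 140 in LECs.

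The exoglycosidases that finish the breakdown in lysosomes included Hexa, which was 1.30-fold higher in LECs, and Gusb, which was 1.39-fold lower, though Gusb did not pass without scaling between arrays (difference -0.25). Of 6 other genes for hyaluronan degradation only Cemip2, a cell-surface hyaluronidase, was tested. It gave 2658, 2456 and 2465 in VECs and 3468, 4092 and 3989 in LECs, 1.30-fold higher (limma adjusted p = 0.035), and did not pass in 8 of the 19 alternatives, among them LEC 7, LEC 8 or any 1 VEC array left out (differences from 0.27 to 0.41). Cemip, Spam1, Hyal4 and Hyal5 were well above background on 0 arrays and Hyal6 on 2 arrays of each group.

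The enzymes that make the UDP-sugar precursors gave 6 higher, 3 lower and 3 that did not pass among 12 tested of 13. Gfpt2, which takes part in the first step toward UDP-N-acetylglucosamine, gave 49.2, 45.4 and 47.2 in VECs and 506, 693 and 698 in LECs, 11.3-fold higher (limma adjusted p = 1.3e-05). Uap1l1 was 2.56-fold and Pgm2 2.18-fold higher. Uap1, which makes UDP-N-acetylglucosamine in the last step, was 2.45-fold lower, with 4786, 4517 and 4913 in VECs and 2275, 2070 and 2454 in LECs. Hk1 was 1.76-fold lower. Ugdh, the enzyme that makes UDP-glucuronic acid, was 1.23-fold higher (limma adjusted p = 0.011). Pgm1 was 1.15-fold lower, but its difference of -0.20 became 0.03 without scaling between arrays, and it did not pass with any 1 array left out (limma adjusted p from 0.054 to 0.11).

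Proteins that work with CD44 at the membrane were tested for 7 of 8 genes, with 2 higher, 4 lower and 1 that did not pass. The linkers between membrane receptors and actin, Rdx (2.59-fold), Ezr (2.05-fold) and Msn (1.95-fold), were lower in LECs, as was Met (3.84-fold), a growth factor receptor that CD44 assists. Ank3, an ankyrin that links membrane proteins to spectrin, was 13.1-fold higher, with 211, 191 and 216 in VECs and 3505, 2616 and 3441 in LECs. Mmp14, a membrane protease that can shed CD44, was 10.7-fold higher.

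**Figure D3:**
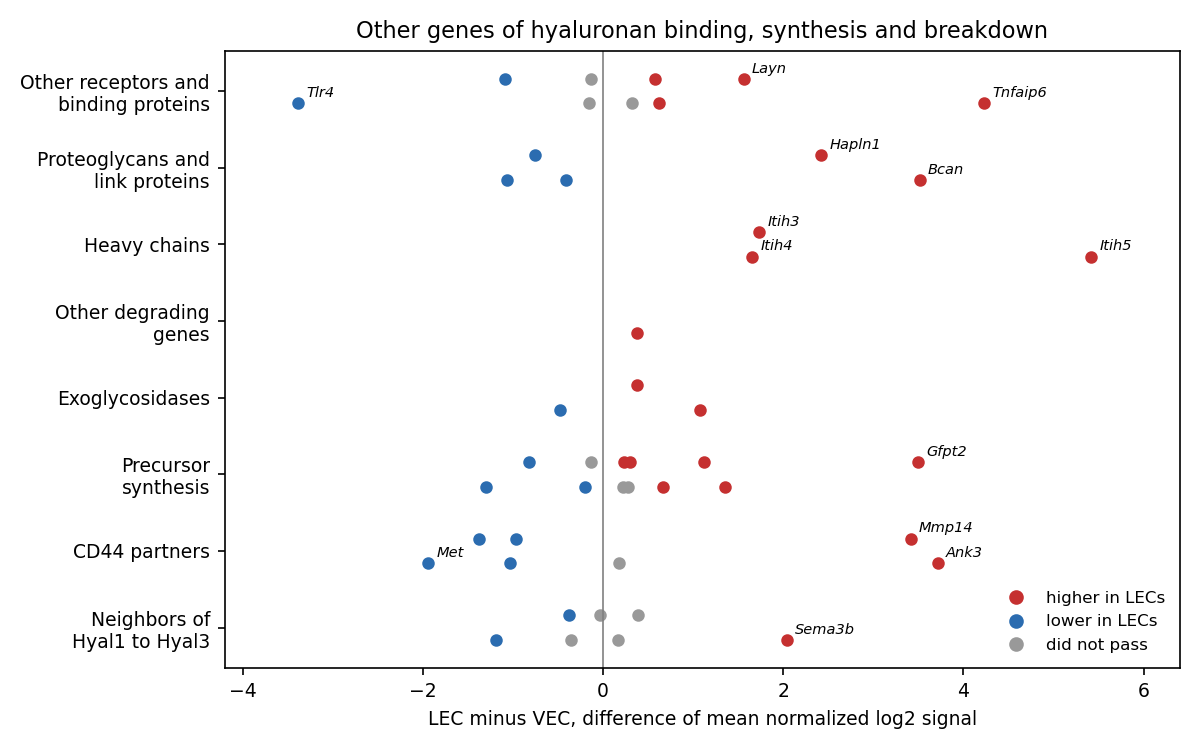
Difference of the mean normalized log2 signal between LECs and VECs (x axis, positive is higher in LECs) for each tested gene of 7 lists of other hyaluronan genes and of the neighbors of Hyal1 to Hyal3 (y axis). Red genes were higher and blue genes lower in LECs by limma, gray genes did not pass, and the measured difference is drawn also where the text gives a lower bound. Itih5 at 5.42 is farthest to the right and Tlr4 at -3.38 farthest to the left.

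The genes beside Hyal1, Hyal2 and Hyal3 on chromosome 9 did not move as a block. Of 7 with a probe, Sema3b, which encodes a secreted semaphorin, was 4.12-fold higher in LECs, with 102, 105 and 134 in VECs and 664, 512 and 477 in LECs. Rassf1 was 2.27-fold and Tusc2 1.29-fold lower, and the other 4, Naa80 among them, did not pass. Tusc2 did not pass without scaling between arrays, nor with LEC 7, LEC 8, VEC 2 or VEC 3 left out (differences from -0.35 to -0.31). Naa80, whose span overlaps those of Hyal1 and Hyal3, had a difference of 0.39 (limma adjusted p = 0.080), the same size as that of Hyal1 and opposite in sign to that of Hyal3. Without LEC 7 it passed, at 0.53 (limma adjusted p = 0.033).

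The genes whose pattern over the 6 arrays was most like that of a member were found by Euclidean distance between log2 signals after each gene's mean was subtracted, over the 14971 genes. For Lyve1 these were Dtx1 (distance 0.43), Mmrn1 (0.68) and Sh3gl3 (0.84), with differences of 11.07, 11.54 and 10.48. For Stab1 they were Tbc1d16 (0.11), Aph1b (0.17) and Pcdh7 (0.18), and for Stab2 Lrrc1 (0.13), Serping1 (0.17) and Grifin (0.20). The nearest to Cd44 were Gulp1 (0.20), Rnf144b (0.21) and Emilin2 (0.22). Has3 was nearest to Olfr456 (0.055), Serpinb3c (0.14) and Zfp454 (0.15), and Hyal3 to Chit1 (0.19), Top2a (0.22) and Plek2 (0.41). With 6 arrays in 2 groups, the distance mostly matches the difference between the groups.

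**Figure D4:**
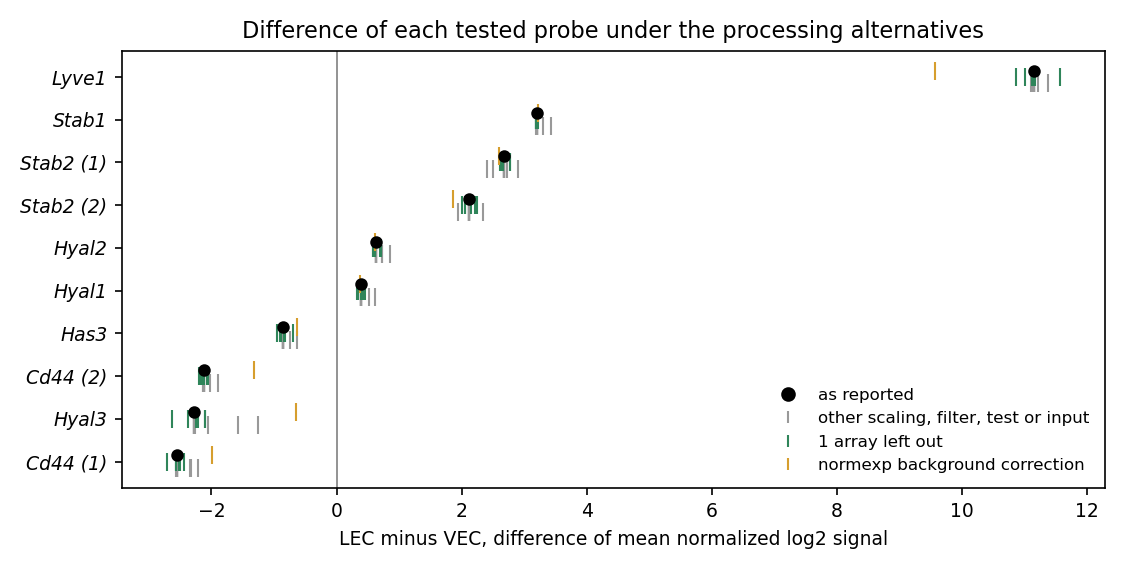
Difference of the mean normalized log2 signal between LECs and VECs (x axis, positive is higher in LECs) for the 10 tested probes, as reported (black points), with other scaling, filter, test or input (gray ticks), with 1 array left out (green ticks) and with normexp background correction (orange ticks). No tick crosses 0, and the widest ranges are those of Lyve1, 9.57 to 11.57, and Hyal3, -2.63 to -0.65.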

How the data were processed

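The authors deposited, for each spot, the intensity that Agilent Feature Extraction 12.0.3.1 reported after subtracting background, with no scaling from array to array. Also deposited were log2 values, which differed from the log2 intensity by a constant for at least 99.9% of the probes on an array (within 0.01), with 75th percentiles from 0.0041 to 0.0068 and medians from -3.19 to -3.13. The methods name Gene Spring GX without settings.

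Intensities were taken to log2, spots marked as outliers (97 to 122 an array) were dropped, the spots of a probe were averaged, and each array's 75th percentile was set to 0. The 33776 probes that passed the filter on background were fitted with limma 3.58.1 in R 4.3.3 (lmFit, eBayes, no trend, two-sided). Benjamini-Hochberg adjustment ran over all of them, with a threshold of 0.05. Precision was limited by the number of arrays (3 a group) and by background (the dimmest signal well above it was 12.1 to 25.1 intensity units). The fit was tested on simulated data. RefSeq accessions of GRCm38.p6 named the probes, and the brightest tested probe stood for a gene. A lower bound of a fold sets the brighter group's mean against that of the dimmer group after raising each dim signal to the dimmest one well above background on its array.

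Named were all members with every probe, all genes of lists of up to 6 genes, at most 3 per direction of longer lists, and the 3 genes nearest in pattern to 6 members. Ugdh, Pgm1, Naa80 and the markers beside results were named after their values were seen. A listed gene is not reported here. Members and lists were chosen with earlier results of these data known. The alternatives were normexp (offset 50, on median signals, since mean signals were not used here), 3 scalings, 2 filters, a floor on dim signals, keeping outlier spots, a trend in eBayes, the one-way test that the methods name, the deposited log2 values, averaging a gene's probes, slide row as a block, and leaving out each array.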

Additional observations from a re-analysis of the deposited data

How the results depend on the processing

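Each of the 8 tested hyaluronan genes kept its direction and passed the threshold under each of the 19 alternatives in which its probe was tested, 6 of them with 1 array left out. Hyal3 was not tested when all 6 arrays had to be well above background, which left 2 genes lower, and Has1 was called higher only when dim probes were also tested, which gave 6 genes higher. The highest adjusted p over the alternatives was 0.038 for Hyal1 and 0.037 for Has3, and at most 0.0099 for the others. The largest change of a difference came from normexp correction for Lyve1 (9.57), Hyal3 (-0.65) and the second Cd44 probe (-1.32). Over the other hyaluronan lists, 17 to 22 genes were called higher and 10 to 13 lower. Without scaling between arrays, 67.4% of called genes were higher in LECs against 52.1% with it (6265 higher and 3026 lower against 5227 and 4796), and the median difference of all genes was 0.24 against 0.02. The groups share no replicate number, and whether any VEC and LEC samples came from the same mice is not stated. No paired analysis was therefore made. Dim probes (Has1, Has2, Has2os and the third Cd44 probe) could not be compared at this signal over background.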
